A study of Mus musculus with 30 samples.

Results

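The removal of dead cells and debris by glia was examined through 10 genes: Mertk, Gas6, Pros1, Megf10, Cd36, Msr1, Mrc1, Cd163, Stab1 and Marco. They were chosen by name, as receptors and ligands of apoptotic cell uptake and as scavenger receptors, from the 30952 genes of the expression table, and all 10 were in it. RNA was sequenced from microglia and astrocytes of the spinal cord of female C57BL/6 mice. The groups of each cell type were 4 naive mice, 6 mice with experimental autoimmune encephalomyelitis (EAE) that received vehicle, and 5 mice with EAE that received a RIPK1 kinase inhibitor. EAE is an autoimmune inflammation of the CNS that was induced by immunization with a peptide of the myelin protein MOG. From a clinical score of around 1, the mice were gavaged for 3 days, b.i.d., with 20% Captisol as vehicle or with 50 mg/kg of the inhibitor, which is called RIPK1inh-1 here. Both EAE groups were immunized and the naive mice were not, and no naive mice received vehicle. Microglia were sorted as CD11b+CD45intCX3CR1+ cells and astrocytes as GLAST+CD11b-CD45-CD140a- cells.

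Dying cells expose phosphatidylserine, a lipid of the inner membrane leaflet, as a signal to be taken up. The secreted proteins Gas6 and Pros1 bind this lipid and bridge it to the receptor tyrosine kinases of the TAM family (Tyro3, Axl and Mertk), and Mertk is the TAM receptor best known for uptake by macrophages and microglia. Megf10 is an engulfment receptor that astrocytes use to clear synapses and cell debris. Cd36 and Msr1 bind oxidized and modified lipoproteins, and Marco is a scavenger receptor of the same class A as Msr1. Stab1 is a large scavenger receptor that also binds phosphatidylserine, Mrc1 is the mannose receptor, and Cd163 takes up hemoglobin bound to haptoglobin. Mrc1 and Cd163 are known as genes of the macrophages at CNS borders more than of parenchymal microglia.

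The start regions of 3 of the genes are shown because their transcripts moved in microglia of EAE mice: Cd36 had the largest rise of the 10 genes, Gas6 is a ligand that rose, and Mertk is its receptor and fell. Each window of 300 bases spans a start that RefSeq gives for the gene, written 5′ to 3′, on build GRCm38.p6, and capitals mark matches to 5 motifs. The Cd36 window lies inside the annotated gene, which has 6 transcripts and its 5′ end at 17888801. Which start the microglia use was not tested. The motifs, searched on both strands, were GAGGAAGT (bound by PU.1), TGCTGA (the core of the element bound by MAF factors), AGGTCA (the core of nuclear receptor elements), TGANTCA (AP-1) and GAAANNGAA (interferon response).
Cd36 (chr5:17835847-17836146, minus strand): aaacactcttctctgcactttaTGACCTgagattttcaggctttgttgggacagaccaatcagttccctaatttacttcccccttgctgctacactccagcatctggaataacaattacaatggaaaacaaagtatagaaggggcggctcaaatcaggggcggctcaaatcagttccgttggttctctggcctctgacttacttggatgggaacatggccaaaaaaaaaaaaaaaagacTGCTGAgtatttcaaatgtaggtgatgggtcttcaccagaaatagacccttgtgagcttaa
Gas6 (chr8:13494486-13494785, minus strand): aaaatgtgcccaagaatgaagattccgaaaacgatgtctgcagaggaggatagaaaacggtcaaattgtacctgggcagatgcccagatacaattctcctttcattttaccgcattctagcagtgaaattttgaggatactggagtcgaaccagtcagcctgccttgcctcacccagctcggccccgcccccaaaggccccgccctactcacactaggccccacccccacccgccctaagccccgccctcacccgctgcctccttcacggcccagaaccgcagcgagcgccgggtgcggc
Mertk (chr2:128698665-128698964, plus strand): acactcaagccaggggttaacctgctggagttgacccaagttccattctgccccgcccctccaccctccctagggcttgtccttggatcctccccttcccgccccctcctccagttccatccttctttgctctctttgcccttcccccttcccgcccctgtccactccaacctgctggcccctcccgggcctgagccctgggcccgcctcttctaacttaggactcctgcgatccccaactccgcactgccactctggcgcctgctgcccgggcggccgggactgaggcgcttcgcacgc

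RefSeq windows were matched for 8 of the 10 genes, all but Msr1 and Megf10. The Cd36 window held 1 MAF core, which 19.5% of all 32851 windows hold, and 1 nuclear receptor core, which 16.3% hold. The window of Stab1 held 1 MAF core, and no window of the other matched genes held any of the motifs. PU.1, AP-1 and interferon response motifs were in 3.2%, 7.81% and 8.56% of all windows. In base composition these windows differed: 43.0% of the Cd36 window was G or C, with 3 CpG dinucleotides, against 66.0% and 14 in Mertk and 58.3% and 17 in Gas6. The median window had 52.7% and 7.

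Expression is given in log2 FPKM, a fragment count scaled to exon length and library size, which the authors quantile-normalized over all 30 libraries. Each unit on this scale is a doubling, except near 0, where an offset that the sources used here do not give sets the values. A gene without signal in a library still holds a value there, set by its place in the table, and such values are called "without signal" below. The highest such value differed by library, from 0.00 to 2.74. A value with signal in one library can thus lie below a value without signal in another. Between 8710 and 20398 genes had signal in a microglia library and between 6728 and 22981 in an astrocyte library, and read depth is unknown. Microglia markers averaged 10.26 ± 0.26 (SD, n = 4) in naive microglia and at most 3.45 in any astrocyte library. Astrocyte markers averaged 7.85 to 9.39 in the astrocyte libraries, but oligodendrocyte markers averaged 6.50 to 10.29 and neuron markers 3.88 to 6.07 in the same libraries. A gene was called higher or lower at a fold change over 1.5 and an unadjusted p under 0.05, and the adjusted p (Benjamini-Hochberg, over all genes tested) is given beside it. Nothing in the labels ties libraries to litters or sort days, so p-values measure the spread between these libraries.

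Cd36 and Msr1 rose in microglia of EAE mice, Gas6 rose less, and Mertk fell, so that the comparison of EAE-vehicle with naive microglia called 4 of the 10, 3 higher and 1 lower. Of all genes tested 12.0% were called, 6.13% higher and 5.86% lower. Centered on the median of the genes with signal in each library, 1570 genes were called higher and 565 lower, a split that moved toward higher calls. After adjustment Cd36 and Msr1 remained, 2 of 10 beside 3.92% of all genes. RIPK1inh-1 against vehicle called 0 of the 10 in microglia by limma, where 1.76% of all genes were called, and 1 of them, Mertk, had an unadjusted p under 0.05 with a smaller fold. In astrocytes Mertk alone was called, lower in EAE (1 of 10, beside 6.71% of all genes) and higher with RIPK1inh-1 than with vehicle (1 of 10, beside 3.02%). Neither astrocyte call passed adjustment, which 0.579% of all genes did for EAE. For RIPK1inh-1 against vehicle in astrocytes limma gave 0 of 30718 genes past adjustment, and 998 at an unadjusted p under 0.05.

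Cd36 (ENSMUSG00000002944, chromosome 5 from 17781690 to 17888801, minus strand) was at the floor or low in naive microglia and among the most abundant transcripts in EAE microglia. The naive libraries read 0.04 and 0.09 without signal, 1.05 and 3.79. EAE-vehicle libraries ran from 7.31 over a median of 7.62 to 7.88. With RIPK1inh-1 they read 6.70, 6.78, 6.99, 7.30 and 7.95. All 11 EAE libraries lay above all 4 naive ones, and the spread within EAE-vehicle (SD 0.20) was a small part of the distance. The difference between EAE-vehicle and naive was 6.38 (SE 0.57, adjusted p = 9.56e-06, exact two-sided permutation p = 0.00476, the smallest that 6 against 4 mice allow). It was the 18th largest rise in group means among 17889 protein-coding genes. In level, 98.1% of protein-coding genes lay below Cd36 in EAE-vehicle microglia and 49.9% in naive microglia. The linear fold depends on the offset and on the naive libraries without signal: the log2 difference was 5.74 with 1 added to the linear values and 7.25 without the libraries that had unusually few or many genes with signal.

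Msr1 (ENSMUSG00000025044, chromosome 8 from 39581685 to 39642673, minus strand) moved the same way to a lower level. Naive libraries read 1.24 and 1.49, and 0.23 and 0.63 without signal. EAE-vehicle libraries ran from 3.81 over a median of 5.15 to 5.86. Again no EAE library reached down to a naive one, and the rise was 4.16 (SE 0.62, adjusted p = 9.80e-04, exact permutation p = 0.00476). With RIPK1inh-1 the 5 libraries read 2.05, 3.23, 3.58, 4.96 and 5.79, a much wider spread (SD 1.47) than with vehicle (SD 0.70). Against vehicle this was a difference of -1.14 (SE 0.58, 95% interval -2.38 to 0.10, unadjusted limma p = 0.0682, adjusted p = 0.930, exact permutation p = 0.121), not past the cutoff. The cutoff was passed when EAE-vehicle library 4, RIPK1inh-1 library 1 or RIPK1inh-1 library 2 was left out (-1.39, -1.40 and -1.61) and with quality weights (-1.98), which also raised the calls over all genes from 511 to 2730 of 28958. For Cd36 the same comparison gave -0.48 (SE 0.53, 95% interval -1.62 to 0.66, unadjusted limma p = 0.384, exact permutation p = 0.0671), with 4 of 5 RIPK1inh-1 libraries below the vehicle mean.

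**Figure D1:**
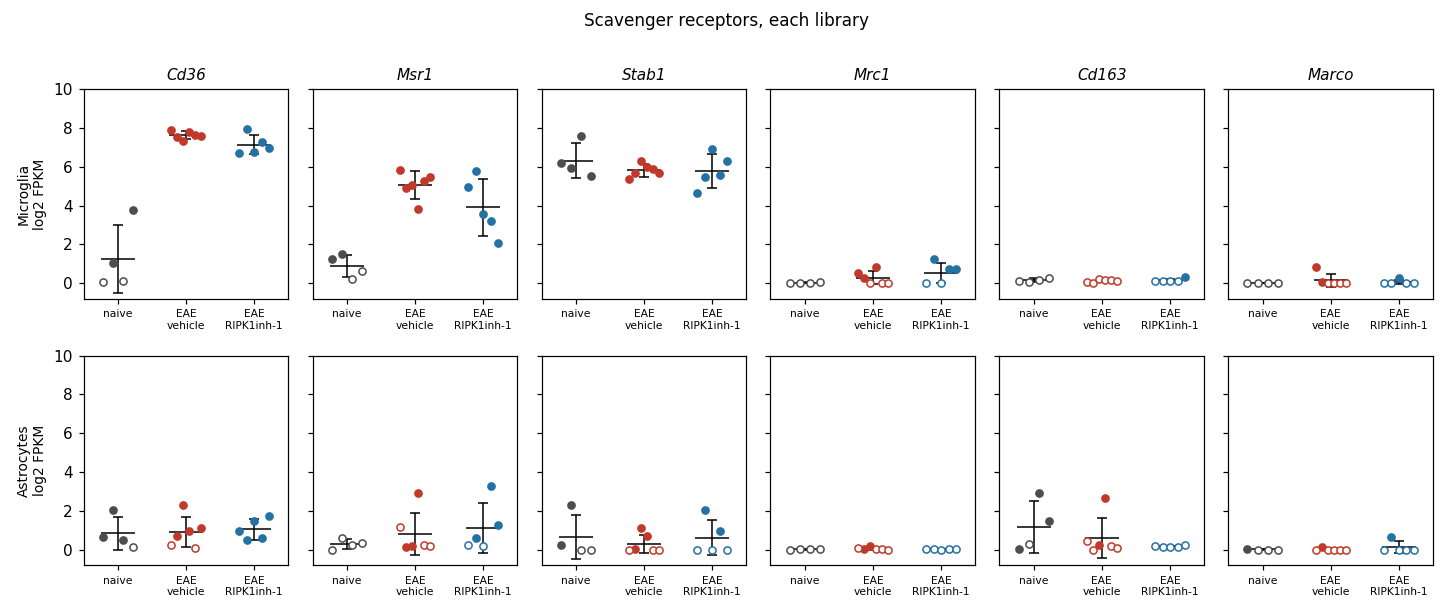
Expression of the 6 scavenger receptor genes in each library in log2 FPKM (y axis) by group of mice (x axis), in microglia (top) and astrocytes (bottom). Filled points have signal and open points do not, and bars are the mean and SD of each group. In microglia Cd36 runs from 0.04 to 3.79 in naive and from 6.70 to 7.95 in EAE libraries, Stab1 is high in all groups, and Mrc1, Cd163 and Marco stay near 0.

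Markers of other myeloid cells were read beside these genes, because Cd36 and Msr1 are also expressed by monocytes and macrophages. Over the 8 monocyte markers the mean per library was 0.78 to 3.34 in naive, 2.29 to 5.76 in EAE-vehicle and 1.53 to 5.81 in EAE-RIPK1inh-1 microglia, with 3 of 8 called higher in EAE-vehicle and Ccr2 and S100a4 without signal in naive microglia. The EAE-vehicle library with the lowest monocyte mean (2.29) had 7.78 of Cd36, that with the highest (5.76) had 7.60, and that with the next highest (5.30) had 7.88, the most of its group. Among RIPK1inh-1 libraries, the one with the lowest monocyte mean (1.53) also had the lowest Cd36, 6.70. That with the highest monocyte mean (5.81) had 6.78, and the highest Cd36, 7.95, was at a monocyte mean of 3.42. The naive library with the highest monocyte mean (3.34) had no Cd36 signal, and it also had the highest neutrophil mean of its group, 9.11. Naive library 4, with the most Cd36 of its group (3.79), had a monocyte mean of 1.58. Its means of border-associated macrophage markers (1.23) and endothelial markers (1.26) were the highest of its group, and it had 8710 genes with signal. Over 6 neutrophil markers the mean per library was 2.97 to 9.11 in naive, 2.18 to 8.41 in EAE-vehicle and 2.34 to 9.55 in EAE-RIPK1inh-1 microglia. For Msr1 the EAE-vehicle libraries with the lowest and the highest monocyte mean had 3.81 and 5.49, so the library lowest in monocyte markers was also the lowest in Msr1. With RIPK1inh-1, however, the library with the lowest monocyte mean (1.53) had 4.96 of Msr1 and that with the highest (5.81) had 3.58. Markers of border-associated macrophages averaged at most 1.52 in any microglia library, with Lyve1, Clec10a and Cd209f without signal in naive and EAE-vehicle microglia, and F13a1 and Ms4a7 called higher in EAE-vehicle, 2 of 8 tested. Microglia markers, among them Cx3cr1 of the sort gate, fell in the same comparison, 10 of 10 called lower, to 7.49 ± 0.32 with vehicle (SD, n = 6). Their mean was 8.07 ± 0.53 under RIPK1inh-1 (SD, n = 5). How much of the rise of Cd36 and Msr1 belongs to monocyte-derived cells in the sort was not tested, and in bulk libraries more cells of a type and more RNA per cell cannot be told apart.

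**Figure D2:**
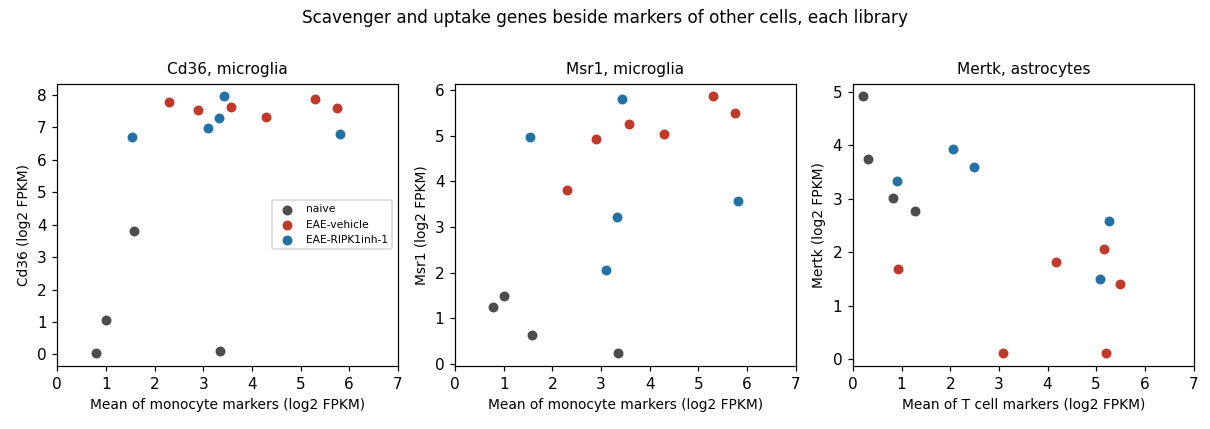
Each point is a library, colored by group of mice. The left and middle panels plot Cd36 and Msr1 (y axis, log2 FPKM) against the mean of 8 monocyte markers (x axis, log2 FPKM) in microglia, and the right panel plots Mertk against the mean of 6 T cell markers in astrocytes. Cd36 lies between 6.70 and 7.95 in the EAE microglia across monocyte means of 1.53 to 5.81.

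In astrocytes neither gene was called. Cd36 read 0.10 to 2.31 in the 15 astrocyte libraries, and 12 of them had signal. The interaction of EAE with cell type for Cd36 was 6.32 (SE 0.78, adjusted p = 3.64e-05), so its response differed between the cell types. Msr1 had no signal in any naive astrocyte library and signal in 6 of 15 in all, the highest being 2.90 with vehicle and 3.27 with RIPK1inh-1. Its interaction had an adjusted p of 0.0517, and no fold is given since the naive astrocytes had no signal.

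Mertk (ENSMUSG00000014361, chromosome 2 from 128698956 to 128802894, plus strand), the TAM receptor, was lower in EAE in both cell types and was the only gene of the 10 to move with RIPK1inh-1 at an unadjusted p under 0.05 in either. Naive microglia read 6.45, 6.65, 6.89 and 6.96. EAE-vehicle microglia ran from 5.34 over a median of 5.79 to 6.68, and 5 of the 6 lay below every naive library. Mertk fell by 0.84 on the log2 scale (SE 0.22, unadjusted limma p = 0.00207, adjusted p = 0.0518, exact permutation p = 0.0238), a linear fold of 1.79. When each library was centered on the median of its genes with signal, the difference was -0.62 with an adjusted p of 0.980 and the call was lost. RIPK1inh-1 microglia read 6.23, 6.26, 6.26, 6.52 and 6.58, all above the vehicle mean and all below the naive mean. Against vehicle the difference was 0.48 (SE 0.21, unadjusted limma p = 0.0395, adjusted p = 0.930, exact permutation p = 0.0498), a fold of 1.39 that is under the cutoff. EAE-vehicle library 2, the one with the most genes with signal, was the highest of its group at 6.68, and without it the difference was 0.63 with an unadjusted limma p of 0.00220.

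Astrocytes held far less Mertk than microglia. Their naive libraries read 2.77, 3.02, 3.75 and 4.92. EAE-vehicle libraries ran from 0.11 over a median of 1.55 to 2.07, and all 6 lay below all 4 naive ones. Mertk fell by 2.41 on the log2 scale (SE 0.64, unadjusted limma p = 0.00194, adjusted p = 0.145, exact permutation p = 0.00476). With RIPK1inh-1 the libraries read 1.49, 2.58, 3.33, 3.59 and 3.93, of which 4 lay above every EAE-vehicle library. This rise was 1.79 (SE 0.60, unadjusted limma p = 0.00981, adjusted p = 0.840, exact permutation p = 0.0173). The remaining difference between RIPK1inh-1 and naive astrocytes was -0.63 (SE 0.67, 95% interval -2.05 to 0.80). Both comparisons with vehicle share the EAE-vehicle libraries, so low values there move them apart in opposite directions.

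The fall in EAE astrocytes stayed past the cutoff in each fit that left out 1 library (-2.69 to -1.98), and the rise with RIPK1inh-1 did so as well (1.55 to 2.16). The rise was lost with quality weights (1.00), after centering (1.43) and without the libraries of unusually few or many genes with signal (1.00). The latter were EAE-vehicle libraries 1 and 2, with 6728 and 22109 genes with signal, and RIPK1inh-1 library 5, with 9898. These are the vehicle libraries at 0.11 for Mertk, the first of them without signal, and the RIPK1inh-1 library with the highest Mertk, 3.93. Markers of other cells moved in the same libraries. T cell markers, of which 6 were in the table, averaged 0.21 to 1.28 in naive, 0.91 to 5.49 in EAE-vehicle and 0.91 to 5.25 in EAE-RIPK1inh-1 astrocytes. In EAE-vehicle against naive, 4 of 6 T cell, 5 of 8 monocyte and 3 of 6 oligodendrocyte markers were called higher. Monocyte markers averaged 0.82 in naive, 3.67 in EAE-vehicle and 3.13 in RIPK1inh-1 libraries, and oligodendrocyte markers 7.20, 9.14 and 8.97. Neuron markers averaged 4.76, 5.52 and 4.78 in the same order. In the RIPK1inh-1 group, the libraries with T cell means of 5.25 and 5.09 had the lowest Mertk values, 2.58 and 1.49. In EAE-vehicle astrocytes, the library with the lowest T cell mean (0.91) had 1.69 and that with the highest (5.49) had 1.41. The highest Mertk of that group, 2.07, was at a T cell mean of 5.16, and the values of 0.11 were at 3.09 and 5.20. The mean of the astrocyte markers was 9.20 ± 0.27 in naive libraries (SD, n = 4). With vehicle it was 8.34 ± 0.36 (SD, n = 6), with 4 of 8 markers called lower and 1 higher, and with RIPK1inh-1 it was 8.77 ± 0.36 (SD, n = 5). The part of these cells in the Mertk values was not tested.

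The interaction of EAE with cell type for Mertk was 1.57 (SE 0.65, adjusted p = 0.398), a smaller fall in microglia than in astrocytes that did not pass adjustment. Of the 10 genes, 4 (Cd36, Msr1, Gas6 and Mertk) were called in this test, beside 8.68% of all genes, and 1 passed adjustment (Cd36), beside 0.982%. For the effect of RIPK1inh-1, the interaction was called for Mertk alone, 1 of 10 beside 3.15% of all genes, at -1.31 (SE 0.61, adjusted p = 0.948), and 15 of 39 alternatives lost it.

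**Figure D3:**
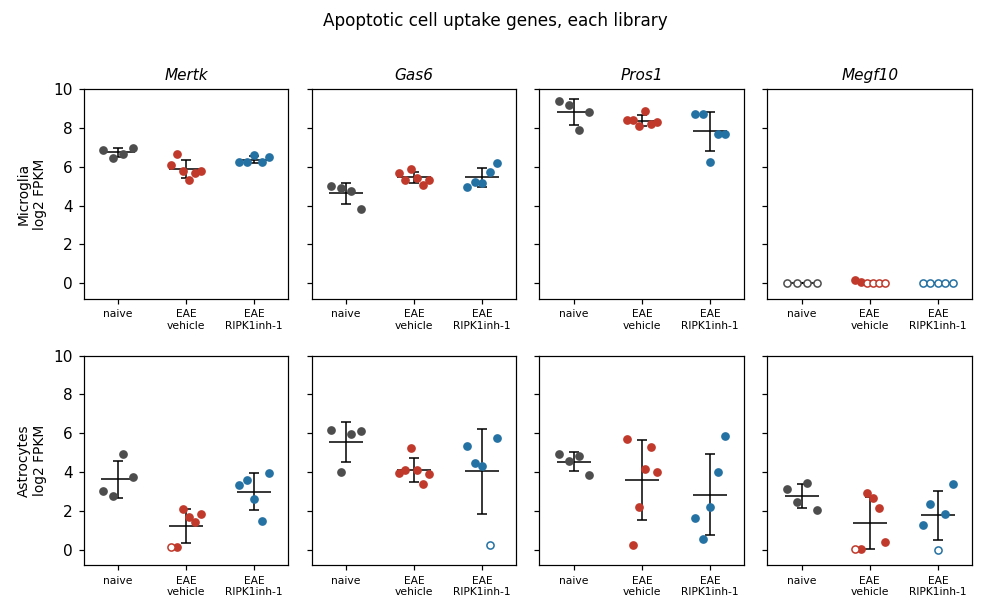
Expression of the receptor Mertk, its ligands Gas6 and Pros1 and the engulfment receptor Megf10 in each library in log2 FPKM (y axis) by group of mice (x axis), in microglia (top) and astrocytes (bottom). Filled points have signal and open points do not, and bars are the mean and SD of each group. Mertk falls from 6.74 to 5.90 in the mean of microglia and from 3.61 to 1.20 in that of astrocytes between naive and EAE-vehicle.

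The ligands of Mertk were expressed by both cell types. Gas6 (ENSMUSG00000031451, chromosome 8 from 13465374 to 13494490, minus strand) read 3.83, 4.75, 4.91 and 5.01 in naive microglia and ran from 5.06 over 5.38 to 5.88 in EAE-vehicle microglia, without overlap. The rise was 0.83 (SE 0.29, unadjusted limma p = 0.0122, adjusted p = 0.162, exact permutation p = 0.00476). It rests in part on naive library 4, which had 8710 genes with signal: without it the difference was 0.56 with an unadjusted limma p of 0.0541, short of the cutoff. It was also lost with quality weights (0.48) and, at an unadjusted limma p of 0.0548, with the replicate number as a block (0.81). RIPK1inh-1 microglia read 4.95, 5.16, 5.22, 5.75 and 6.19, and the difference from vehicle was 0.00 (95% interval -0.57 to 0.58).

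In astrocytes Gas6 was at 4.02, 5.93, 6.12 and 6.17 in naive libraries and ran from 3.37 over 4.02 to 5.26 in EAE-vehicle. The difference, -1.44 (SE 0.88, unadjusted limma p = 0.121, adjusted p = 0.835, exact permutation p = 0.0238), was not called. RIPK1inh-1 astrocytes read 4.33, 4.47, 5.35 and 5.77, and 0.23 in a library without Gas6 signal, which stood far from the rest. The spread of the fit rests on that library: without it, Gas6 passed the cutoff in EAE-vehicle against naive at an unadjusted limma p of 0.0170. The response of Gas6 to EAE differed between the cell types by 2.27 (SE 0.94, adjusted p = 0.395), higher in microglia. The exons of Gas6 share 34 bases with Tmem255b on the other strand. The expression table marks Gas6 as confounded with another gene, as it does Mertk, Mrc1 and Stab1 and 15717 of the 30952 genes in all.

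Pros1 (ENSMUSG00000022912, chromosome 16 from 62854307 to 62929346, plus strand), which encodes protein S, was the most abundant of the 10 genes in microglia. It read 7.89, 8.82, 9.20 and 9.39 in naive, from 8.09 over 8.36 to 8.87 in EAE-vehicle, and 6.27, 7.70, 7.71, 8.73 and 8.75 in RIPK1inh-1 microglia. In naive microglia 99.4% of protein-coding genes lay below it. EAE-vehicle differed from naive by -0.44 (SE 0.42, 95% interval -1.35 to 0.47) and RIPK1inh-1 from vehicle by -0.56 (SE 0.40, 95% interval -1.41 to 0.30), and neither was called. Only RIPK1inh-1 against naive passed the cutoff, at -0.99 (SE 0.44, unadjusted limma p = 0.0406, adjusted p = 0.368, exact permutation p = 0.135), and 11 of 25 alternatives lost it. One library decides much of it: without RIPK1inh-1 library 3, at 6.27, the difference was -0.60. Pros1 in astrocytes was lower and scattered, 3.82 to 4.91 in naive, 0.26 to 5.70 in EAE-vehicle and 0.56 to 5.84 in RIPK1inh-1 libraries, and was not called in any comparison of the astrocyte groups.

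Counting all comparisons of RIPK1inh-1 with naive, 4 of 10 genes were called in microglia (Cd36, Msr1, Gas6 and Pros1), beside 10.1% of all genes. Cd36 differed by 5.90 (SE 0.59, adjusted p = 4.12e-05) and Msr1 by 3.02 (SE 0.64, adjusted p = 0.0192), so both stayed above naive under the inhibitor. In astrocytes limma called 0 of 10 at this cutoff, beside 4.63% of all genes, with an unadjusted p under 0.05 for 0 of 10 as well. With quality weights 3 of the 10 were called there, Mertk (-1.44) and Gas6 (-2.57) among them, but calls over all genes rose as well, from 1421 to 3152 of 30718.

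Megf10 (ENSMUSG00000024593) had signal in 13 of 15 astrocyte libraries and 2 of 15 microglia libraries, where it read at most 0.19. Its naive astrocyte values were 2.05, 2.47, 3.13 and 3.42. EAE-vehicle astrocytes ran from 0.03 over 1.27 to 2.94, and RIPK1inh-1 astrocytes read 0.00 without signal, 1.27, 1.84, 2.35 and 3.36. The groups overlapped, and the difference in EAE was -1.40 (SE 0.77, 95% interval -3.04 to 0.24, exact permutation p = 0.0952). The EAE-vehicle libraries fell apart, with 3 at or under 0.40 and the others at 2.14, 2.64 and 2.94, and no library lay near the mean of 1.37. The low ones were library 1 (0.05, without signal), library 2 (0.03) and library 6 (0.40). They had 6728, 22109 and 14661 genes with signal, the first 2 being the lowest and highest counts of the group.

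**Figure D4:**
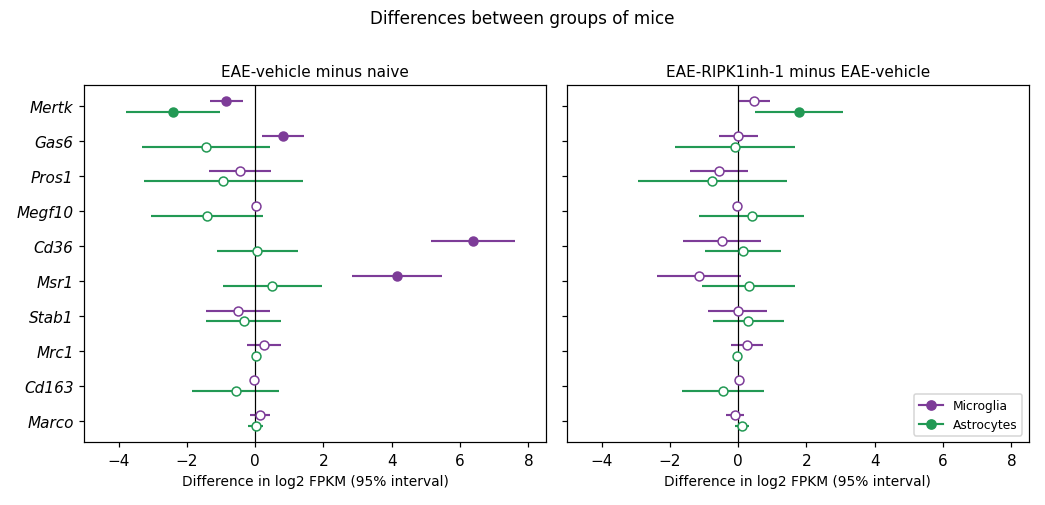
Difference in log2 FPKM (x axis) with its 95% interval from limma for the 10 genes (y axis), EAE-vehicle minus naive on the left and EAE-RIPK1inh-1 minus EAE-vehicle on the right, in microglia (purple) and astrocytes (green). Filled points passed a fold of 1.5 and an unadjusted limma p of 0.05. The largest differences are those of Cd36 (6.38) and Msr1 (4.16) in EAE microglia, and on the right Mertk in astrocytes (1.79) is the only filled point.

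Stab1 (ENSMUSG00000042286, chromosome 14 from 31139013 to 31168641, minus strand) was a gene of microglia in every group. Naive libraries read 5.55, 5.92, 6.19 and 7.60, EAE-vehicle ran from 5.35 over 5.79 to 6.29, and RIPK1inh-1 libraries read 4.65, 5.50, 5.58, 6.31 and 6.94. Its differences were -0.50 (95% interval -1.43 to 0.43) in EAE and -0.02 (95% interval -0.89 to 0.85) with RIPK1inh-1. In astrocytes 7 of 15 libraries had signal, up to 2.32. Exons of Stab1 share 112 bases with Nt5dc2 on the other strand.

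The remaining scavenger receptors were close to undetected. Mrc1 had no signal in any naive microglia library, and in EAE-vehicle libraries it had signal in 3 of 6, at 0.25, 0.54 and 0.86. With RIPK1inh-1 it had signal in 3 of 5 microglia libraries, at 0.71, 0.71 and 1.23, and the groups overlapped. Cd163 had signal in 1 of 15 microglia libraries (0.30, with RIPK1inh-1). In astrocytes it had signal in 3 naive libraries, at 0.02, 1.47 and 2.92, and in 2 EAE-vehicle libraries, at 0.21 and 2.67. Marco had signal in 3 of 15 libraries of each cell type and read at most 0.82. Absence cannot be stated from these values, since the depth of the libraries is unknown.

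Set side by side, microglia and astrocytes expressed different parts of this system. In EAE both were sorted from the same mice, per the study's methods, but the labels do not say which libraries share a mouse, so the tests between cell types and the interactions treat libraries as independent. In naive mice Stab1 (5.67, SE 0.56), Pros1 (4.30, SE 0.92) and Mertk (3.12, SE 0.51) were higher in microglia, with adjusted p values of 9.37e-09, 0.00137 and 4.04e-05. Megf10 was higher in astrocytes, without overlap (exact permutation p = 0.0286). Cd163 was also called higher in astrocytes, but the ranges overlapped (exact permutation p = 0.257). Its naive astrocytes read 0.02, 0.27 without signal, 1.47 and 2.92. The microglia had no signal for either gene. This made 5 of 10 called beside 19.7% of all genes. Of these 4 passed adjustment (Stab1, Pros1, Mertk and Megf10), beside 11.9%. Cd36 did not separate the cell types in naive mice (0.41, 95% interval -0.83 to 1.64). In EAE-vehicle mice 7 of 10 were called, beside 22.4%, with Cd36 (6.72, SE 0.49), Msr1 (4.26, SE 0.59) and Gas6 (1.33, SE 0.60) now higher in microglia beside Stab1, Pros1 and Mertk, and Megf10 lower. After adjustment 5 of 10 remained, beside 13.8%, Gas6 (adjusted p = 0.158) and Megf10 (adjusted p = 0.0767) being the ones lost. With RIPK1inh-1 the same 7 genes were called, beside 21.7%, and 7 of 10 passed adjustment, beside 13.0%. Gas6 (adjusted p = 0.181) was not among these, and Mrc1 (adjusted p = 0.0393) was, under the fold cutoff and without signal in the astrocytes of that group.

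The order of the genes on this length-scaled measure shifted with EAE. In naive microglia Pros1 (8.82 ± 0.67, SD, n = 4) came first, then Mertk (6.74 ± 0.23) and Stab1 (6.31 ± 0.90), whose ranges overlapped, then Gas6 (4.62 ± 0.54), with Cd36 and Msr1 below 2. In EAE-vehicle microglia Cd36 (7.62 ± 0.20, SD, n = 6) stood second after Pros1 (8.39 ± 0.27), without overlap with its neighbors, and Mertk (5.90 ± 0.46), Stab1 (5.81 ± 0.32), Gas6 (5.45 ± 0.29) and Msr1 (5.06 ± 0.70) each overlapped the next. In astrocytes Gas6 had the highest mean in all 3 groups. Its naive level, 5.56 ± 1.03 (SD, n = 4), was followed by Pros1 (4.53 ± 0.50), Mertk (3.61 ± 0.96) and Megf10 (2.77 ± 0.62), each overlapping the next. In EAE-vehicle and RIPK1inh-1 astrocytes the range of Gas6 also overlapped that of the next gene. With vehicle the median of Pros1 (4.06) lay above that of Gas6 (4.02).

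The genes around these in the uptake pathway were read from 5 lists with 50 genes, of which 47 could be tested in microglia and 46 in astrocytes. In microglia 6 were called higher and 12 lower in EAE-vehicle (6.13% and 5.86% of all genes), and 4 and 6 after adjustment (2.37% and 1.56%). The median difference over the 47 was -0.12, beside -0.02 over all genes. Among TAM receptors and bridging proteins, Axl rose from 3.48 ± 0.55 (SD, n = 4) to 6.35 ± 0.38 (SD, n = 6), by 2.87 (SE 0.44, adjusted p = 0.00122), while Mertk fell. Tyro3, the third TAM receptor, read 0.30 ± 0.66 (SD, n = 6) in EAE-vehicle microglia and was not called. The complement component C1qc, which also tags dying cells, fell by 0.68 (SE 0.17, adjusted p = 0.0377) from a very high level, 12.82 ± 0.15 (SD, n = 4).

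Of the other phosphatidylserine receptors, 2 of 11 were called higher in EAE microglia and 5 lower. Cd300lf, which binds phosphatidylserine, rose by 6.03 (SE 0.56, adjusted p = 1.45e-05) to 8.36 ± 0.34 (SD, n = 6), a change of the size of that of Cd36. Cd14, which helps tether apoptotic cells, fell by 2.43 (SE 0.39, adjusted p = 0.00190). Cd300a, an inhibitory receptor of the same family as Cd300lf, fell by 2.09 (SE 0.53, adjusted p = 0.0409), and the lipid sensor Trem2 fell by 1.48 (SE 0.18, adjusted p = 1.83e-04) to 9.17 ± 0.30 (SD, n = 6). Among 12 genes of the engulfment machinery 1 was called higher (Rac2) and 3 lower. Elmo1, part of the exchange factor that activates Rac during uptake, fell by 2.05 (SE 0.26, adjusted p = 2.49e-04). Of 5 eat-me and do-not-eat-me genes, Sirpa, the receptor for Cd47, was called lower (-1.46, SE 0.39, adjusted p = 0.0504). Among 13 other scavenger receptors, Colec12 rose by 2.32 (SE 0.53, adjusted p = 0.0215) and Cxcl16, which binds oxidized lipoprotein, by 1.23 (SE 0.32, adjusted p = 0.0437), and Mrc2, a collagen receptor, fell by 1.80 (SE 0.24, adjusted p = 3.76e-04).

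In astrocytes 8 of 46 pathway genes were called higher in EAE-vehicle and 6 lower (2.69% and 4.01% of all genes). C1qb and C1qc, genes of myeloid cells, rose by 4.37 (SE 0.82, adjusted p = 0.0245) and 4.07 (SE 0.69, adjusted p = 0.0106). Also called higher, without passing adjustment, were Rac2 (4.89, SE 1.25, adjusted p = 0.119) and Tyrobp (3.77, SE 1.16, adjusted p = 0.264). So were Dock2 (2.63, SE 0.84, adjusted p = 0.300), Cd68 (2.33, SE 1.00, adjusted p = 0.622) and Cd300lf (2.16, SE 0.83, adjusted p = 0.500). In the same libraries the microglia markers averaged 1.08 to 3.45, against 0.87 to 2.40 in naive astrocytes. Monocyte markers averaged 1.48 to 4.56, against 0.17 to 1.68, with 5 of 8 called higher, and the part of either in this was not tested. Lower in EAE astrocytes were Mfge8, a bridging protein for integrins (-3.67, SE 1.18, adjusted p = 0.310), Axl (-2.29, SE 0.91, adjusted p = 0.531), Lrp1 (-2.01, SE 0.50, adjusted p = 0.102), the lipid exporter Abca1 (-1.67, SE 0.57, adjusted p = 0.369), Itgav and Colec12. Axl thus rose in microglia and was lower in astrocytes, while Mertk was lower in both. RIPK1inh-1 against vehicle called 1 of 47 pathway genes in microglia, Cd300a (1.26, SE 0.50, adjusted p = 0.930), beside 1.76% of all genes. In astrocytes it called 2 of 46, beside 3.02% of all genes, C1qc lower (-1.86, SE 0.64, adjusted p = 0.840) and Abca1 higher (1.36, SE 0.53, adjusted p = 0.840). Of the 47 tested between the cell types in naive mice, 18 were called higher in microglia and 6 in astrocytes (10.0% and 9.64% of all genes).

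**Figure D5:**
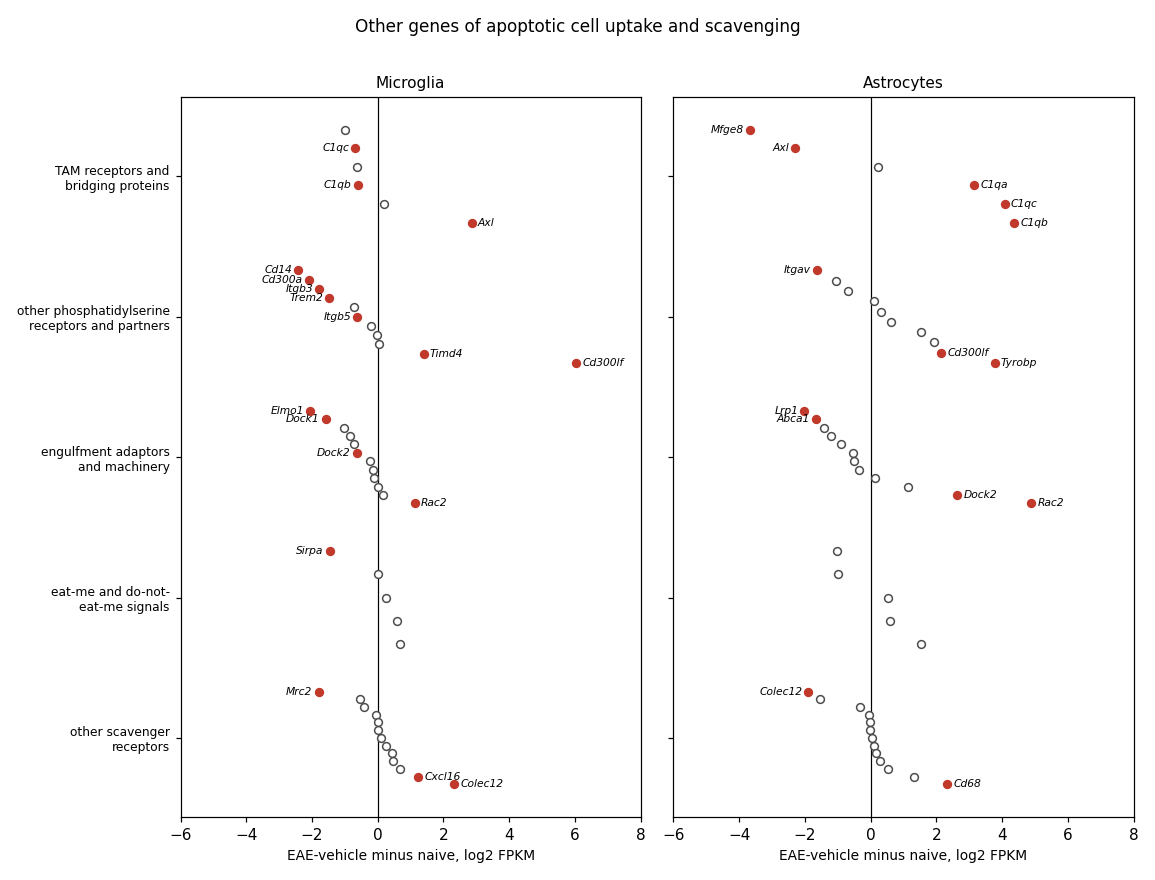
Difference between EAE-vehicle and naive in log2 FPKM (x axis) for the other genes of uptake and scavenging, grouped by list (y axis), in microglia (left) and astrocytes (right). Each point is a gene, and red points with a name passed a fold of 1.5 and an unadjusted limma p of 0.05. In microglia Cd300lf (6.03) and Axl (2.87) lie farthest to the right and Cd14 (-2.43) farthest to the left.

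For each of the 10 genes with signal in at least 10 of the 15 libraries of a cell type, the genes whose values ran most alike over the 15 libraries were found by Pearson's r, as a description, since the libraries share the step between naive and EAE. Cd36 in microglia was followed most closely by Cfb (r = 0.988), Fgl2 (r = 0.979) and Rnf213 (r = 0.974). Cfb, complement factor B, went from 1.83 in naive to 8.51 in EAE-vehicle and 7.68 in RIPK1inh-1 microglia in the group means. Msr1 ran with Ms4a4c (r = 0.943), Dnase1l3 (r = 0.940) and Tgtp1 (r = 0.931). Mertk ran with Atg9a (r = 0.892), Srsf11 (r = 0.887) and Snx5 (r = 0.878) in microglia, and with Syt11 (r = 0.896), Tlcd1 (r = 0.893) and Ptch1 (r = 0.892) in astrocytes. The astrocyte levels of Ptch1, the receptor for hedgehog ligands, were 4.93, 1.53 and 3.68 in the means of the naive, vehicle and inhibitor groups. For Pros1 in astrocytes the closest gene was Olig2 (r = 0.878), a transcription factor of the oligodendrocyte lineage. The 3 genes closest to Mertk in microglia and the 3 in astrocytes had none in common.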

How the data were processed

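The authors aligned the reads, quantified FPKM and normalized in OmicSoft Array Studio, per the study's methods, and deposited log2 FPKM values for 30952 genes in 30 libraries. Every library holds the same sorted values, the mark of quantile normalization. Aligner and offset are not given in the sources used here. Genes without signal were recognized in each library as the lowest stretch, where values rise with the row of the table. Groups came from the sample titles. In R 4.3.3, limma 3.58.1 (lmFit, eBayes with trend) was fitted to the values as deposited, once per cell type over its 3 groups (28958 genes in microglia, 30718 in astrocytes) and all 6 groups for comparisons between cell types (30952 genes). The cutoff is that of the study. Fits are unpaired, since nothing in the labels pairs the mice or says which microglia and astrocyte libraries share one. Exact permutation tests, two-sided, went over all splits of the mice. The fits were tested on simulated data with 200 shifted genes. Named are the 10 genes, and of the pathway lists those with the largest changes past adjustment in each list (at most 4) or, if none, past the cutoff. Rac2 in microglia, Tyro3, and Axl and Mfge8 in astrocytes were named outside this rule, after their values were seen. The columns of gene annotation were used for names and positions. Genes and lists were chosen with earlier results of these data known. Gene positions were compared with GENCODE M21 (GRCm38) and were identical for 10 of 10. Alternatives covered filters, offsets, centering, a replicate block, weights, detection and leaving out libraries.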

Additional observations from a re-analysis of the deposited data

Results flagged for a closer look

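In groups of 4 to 6 libraries, a highest or lowest library was flagged when its gap to the next exceeded Dixon's 95% critical value, which chance does in about 1 of 20 groups. Of 50 groups tested, 11 were flagged. The rate of 1 in 20 holds for normally distributed values. Where all libraries of a group but 1 read 0.00, as in Marco groups below, a flag is certain, so the count cannot be set against that rate. Among naive astrocytes, Gas6 was low in replicate 2 (4.02, the next at 5.93). Gas6 also had no signal in RIPK1inh-1 astrocyte replicate 4 (0.23, the next at 4.33). Replicate 2 of the naive astrocytes was high in Stab1 (2.32). Cd163 stood out at 2.67 in EAE-vehicle astrocyte replicate 4 and at 0.30 in RIPK1inh-1 microglia replicate 5. Megf10 was 0.19 in EAE-vehicle microglia replicate 1, the same library in which Marco was 0.82. Marco was also flagged at 0.27 in RIPK1inh-1 microglia replicate 3, at 0.02 in naive astrocyte replicate 1, at 0.11 in EAE-vehicle astrocyte replicate 2 and at 0.65 in RIPK1inh-1 astrocyte replicate 2, in groups where the other libraries had little or no signal.

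The response of Cd36 to EAE differed between microglia and astrocytes by 6.32 on the log2 scale (limma, adjusted p = 3.64e-05), with a rise of 6.38 in microglia and a difference of 0.06 in astrocytes. It passed adjustment in all 39 alternatives, where it ran from 5.70 to 7.17.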

How the results depend on the processing

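Over 2420 alternative values of single genes, 2334 kept their side of the cutoff, 68 lost it, 18 gained it and 0 of those called changed sign. The total includes genes not called in the main fit. It also includes fits that left out a library outside the groups compared, so it does not measure how firm the calls are. Cd36 and Msr1 passed adjustment in EAE microglia in all 25 alternatives. Centering each library on the median of its genes with signal moved the median difference of all genes from -0.02 to 0.21 in EAE microglia, to 0.11 for RIPK1inh-1 in microglia and to -0.38 in astrocytes. It left 2 called genes of 4 in EAE-vehicle against naive microglia, 2 of 4 in RIPK1inh-1 against naive microglia, 0 of 1 for RIPK1inh-1 in astrocytes, and 2 of 4 and 0 of 1 for the interactions of EAE and RIPK1inh-1 with cell type. Calls over all genes fell as well, from 3473 to 2135, 2911 to 1833, 927 to 354, 2686 to 1130 and 976 to 305. An adjusted p under 0.05 as the cutoff left 2, 2, 0, 1 and 0 in that order, and 0 of 1 in EAE astrocytes. Quality weights called 2 in place of 0 for RIPK1inh-1 in microglia (Mertk and Msr1), where calls over all genes rose from 511 to 2730, 0 of 1 in astrocytes, 3 in place of 0 in RIPK1inh-1 against naive astrocytes and 0 of 1 for the interaction of RIPK1inh-1. In the last 3 comparisons, calls over all genes rose from 927 to 1368, 1421 to 3152 and 976 to 1604. Without the libraries under 10000 or over 20000 genes with signal, an alternative chosen after seeing the data, these counts were 1, 0, 2 and 0, and 2 of 4 for RIPK1inh-1 against naive microglia. A filter at a mean of 1 left 3 of 5 between the naive cell types and 0 for the interaction of RIPK1inh-1, where adding 1 to the linear values also left 0. Over all genes the filter called 4817 and 557 of 11489, and adding 1 called 869 of 30952 for the interaction. Fitting only the groups compared called 2 in EAE astrocytes in place of 1 (Mertk and Gas6), beside 1968 of 30437 genes in place of 2060 of 30718. Leaving out 1 library gave 0 to 1 for RIPK1inh-1 in microglia, 2 to 5 for RIPK1inh-1 against naive microglia, 1 to 2 in EAE astrocytes, 0 to 1 for RIPK1inh-1 against naive astrocytes, and 0 to 2 for the interaction of RIPK1inh-1.

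The labels give only replicate numbers, and do not say which microglia and astrocyte libraries come from 1 mouse: correlations of same-numbered libraries ran from -0.156 to 0.241 and were over 0.1 for every pair in no pair of groups. With the number as a replicate block, 1 gene was called in place of 0 in RIPK1inh-1 against naive astrocytes (Pros1), and the calls of Gas6 in microglia were lost. Over all genes that astrocyte comparison called 1388 with the block and 1421 without it. With same-numbered libraries of a treatment as a block, the counts of called genes between cell types and in the interactions were 5, 7, 7, 4 and 1, as without it. Of all genes in EAE against naive microglia, 588 passed adjustment with the block and 1136 without it, and 2135 in place of 3473 were called after centering. Depth is unknown and limits what can be said of genes near 0, most in the EAE-vehicle astrocyte library with 6728 genes with signal.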

Other observations

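Pros1 and Stab1 in microglia were opposed in the libraries with the most neutrophil markers, a pattern seen after the values were known. In naive, EAE-vehicle and RIPK1inh-1 microglia the library with the highest mean of 6 neutrophil markers read 9.11, 8.41 and 9.55. The same libraries had the lowest Pros1 of their groups, 7.89, 8.09 and 6.27. They also had the highest Stab1 of their groups, 7.60, 6.29 and 6.94. All of these carry the replicate number 3, and nothing in the labels says that the number marks a shared sort or batch. Over all libraries of the sorted microglia, these markers averaged 5.23 in naive, 5.42 in EAE-vehicle and 4.57 in RIPK1inh-1 mice. The part of neutrophils in the Pros1 and Stab1 values was not tested.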
